A study of Mus musculus with 3 samples.

Results

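Cadherins are calcium-dependent adhesion proteins whose extracellular repeats bind the same repeats on a neighbouring cell. The genes described here were the 79 whose symbol in the deposited table begins with Cdh followed only by a number, or with Pcdh, out of 19471 genes in the table. They comprised 20 cadherins and 59 protocadherins. By textbook classes, 5 were type I and 11 type II classical cadherins, 4 were other cadherins, 4 were delta-1 and 5 delta-2 protocadherins, 2 were other protocadherins, and 48 belonged to the clustered protocadherins, with 6 alpha, 22 beta and 20 gamma genes.

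Poly(A) RNA was sequenced from cortical astrocytes of wild-type (WT) mouse pups of postnatal day 1, which were cultured for 7 days. All libraries belong to 1 group, and replicates 1, 2 and 3 come from pups 5, 6 and 8, which the labels call biological replicates. The titles give the age as P1 whereas the sample descriptions carry the name P0. The descriptions of all 3 libraries also carry Ctrl, without saying what it was a control for, and neither the strain nor the sex of the pups is given in the labels used here. The series as a whole concerns the histone variant H2BE, but no other genotype, age or treatment was used here, so members were compared with one another, with all other genes of the same library, and between libraries. The spread between replicates holds that of pups, of cultures and of library making together, and these cannot be told apart.

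Classical cadherins hold cells together at adherens junctions, where their cytoplasmic tails bind beta-catenin and p120 catenins and, through alpha-catenin, actin. Protocadherins lack the catenin-binding tail. The clustered ones are encoded in a row of alternative first exons, each with its own promoter, and the alpha and gamma genes splice theirs to constant exons common to the whole cluster, whereas beta genes have no constant exon. In neurons the choice of first exon gives single cells an identity by which they recognise their own branches, and gamma protocadherins are also made by astrocytes.

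Library totals were 14380993, 25128038 and 9858626 reads for replicates 1, 2 and 3, a 2.55-fold range in depth. A single read was worth 0.813, 0.472 and 1.20 normalized counts, so a count of 0 reads allows up to 2.44, 1.42 and 3.59 normalized counts (3 reads, counting error only). Cadherins and protocadherins together took 0.199%, 0.211% and 0.214% of the reads. All 8 astrocyte markers checked had a mean of 10 or more, from Gfap at 52283 ± 6679 normalized counts down to S100b at 68.7 ± 19.4 (SD, n = 3), and their summed level ranged from 86226 to 107866. Markers of other cells were present too. The summed level of 4 microglial markers, all with a mean of 10 or more, ranged from 10475 to 16375 and was highest in replicate 1, and that of 3 ependymal markers, again all with such a mean, from 9828 to 13221. The 5 fibroblast and meningeal markers summed to 3101 to 3774, with Lum lowest at 2.20 ± 1.38, and the 4 mural markers to 1266 to 1621, with Kcnj8 and Abcc9 at 0 reads in replicate 3. The 4 oligodendrocyte lineage markers in the table, which included the transcription factor genes Olig1 and Olig2, summed to 6315 to 8772. The 5 neuronal markers summed to 2807 to 2968, most of it from Map2 at 2564 ± 55.0. Of the others, Syt1 stood at 222, 35.9 and 244 in replicates 1, 2 and 3, with replicate 2 far lower, Rbfox3 at 7.65 ± 2.45 and Snap25 at 2.51 ± 0.691. The 3 choroid plexus markers summed to 402 to 892, with Kl lowest at 2.74 ± 1.99, and Ttr stood at 557 in replicate 2 against 31.7 and 13.2 in replicates 1 and 3. In bulk RNA, fewer cells of a type and less RNA per cell cannot be told apart, and the part of these cells in the levels below was not tested.

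Cdh2, Pcdh10, Cdh4, Cdh11 and Pcdhgc3 were the 5 members with a mean normalized count of 1000 or more. A mean of 10 or more was reached by 59 of the 79 members (74.7%), against 71.6% of all genes in the table. A mean of 100 or more was reached by 26 of the 79, against 10571 of the 19471 genes in the table. For a mean of 1000 or more it was 5 of the 79, against 2954 of the 19471. Nearest to the limit of 10 were Cdh5 at 11.9 ± 3.16 on the upper side and Pcdh11x, an X-linked delta-1 protocadherin, at 9.60 ± 2.52 below it. The 20 members under 10 held between 1 and 41 reads over all libraries, so they were described by their levels only. Detection was complete in the gamma cluster (20 of 20), the delta-2 group (5 of 5) and the other cadherins (4 of 4), and sparse in the alpha cluster (2 of 6) and in type I cadherins (2 of 5).

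**Figure D1:**
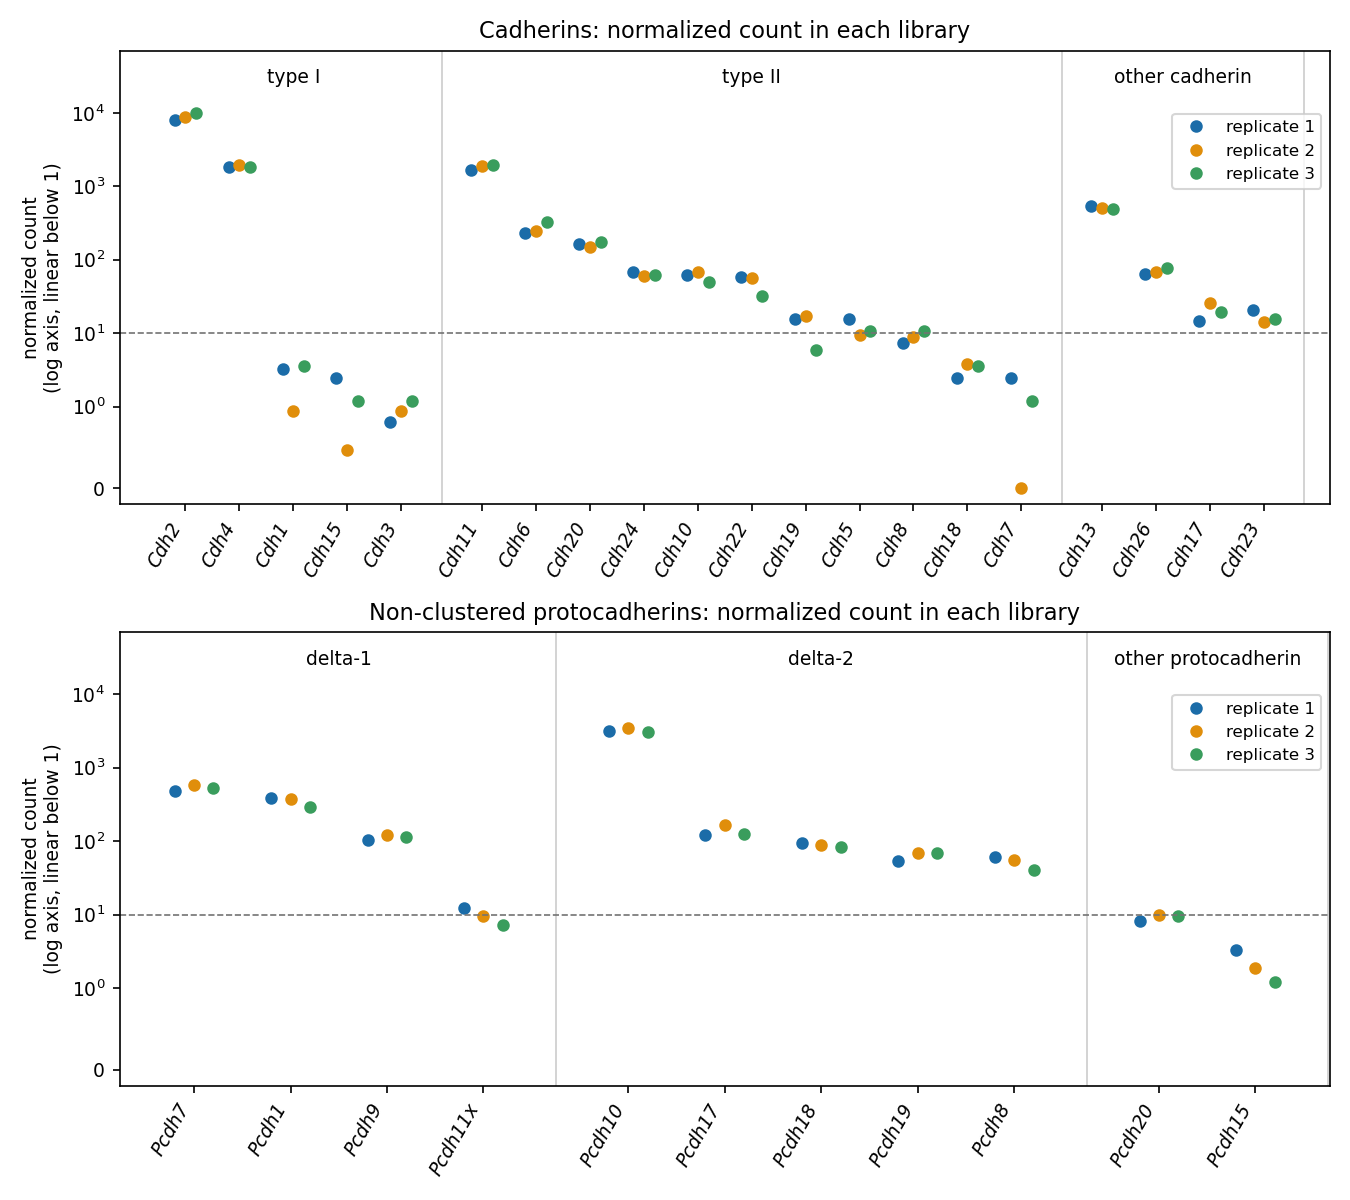
Normalized count of each cadherin (upper panel) and each non-clustered protocadherin (lower panel) in replicates 1, 2 and 3, on a log axis that is linear below 1, with members ordered by mean within a class and the dashed line at 10. Cdh2 stands highest in the upper panel, between 7978 and 9965, and Pcdh10 in the lower, between 3034 and 3482.

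To place members against other genes, values were divided by exon length in kilobases (kb), and the difference of each gene from the median detected gene of its library was tested with limma. On this scale 5 members were above the library median and 52 below it, while 2 of the 59 tested members differed in neither direction. Over all genes tested, 45.7% were called above and 45.1% below, and the median difference was −2.09 on the log2 scale over the members and −0.01 over all genes. All 5 calls above and all 52 calls below had the same direction in 3 of 3 libraries. These are the values that entered the fit, so their shared direction is no separate support. The library medians themselves were 70.8, 71.7 and 71.6 normalized counts per kb.

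**Figure D2:**
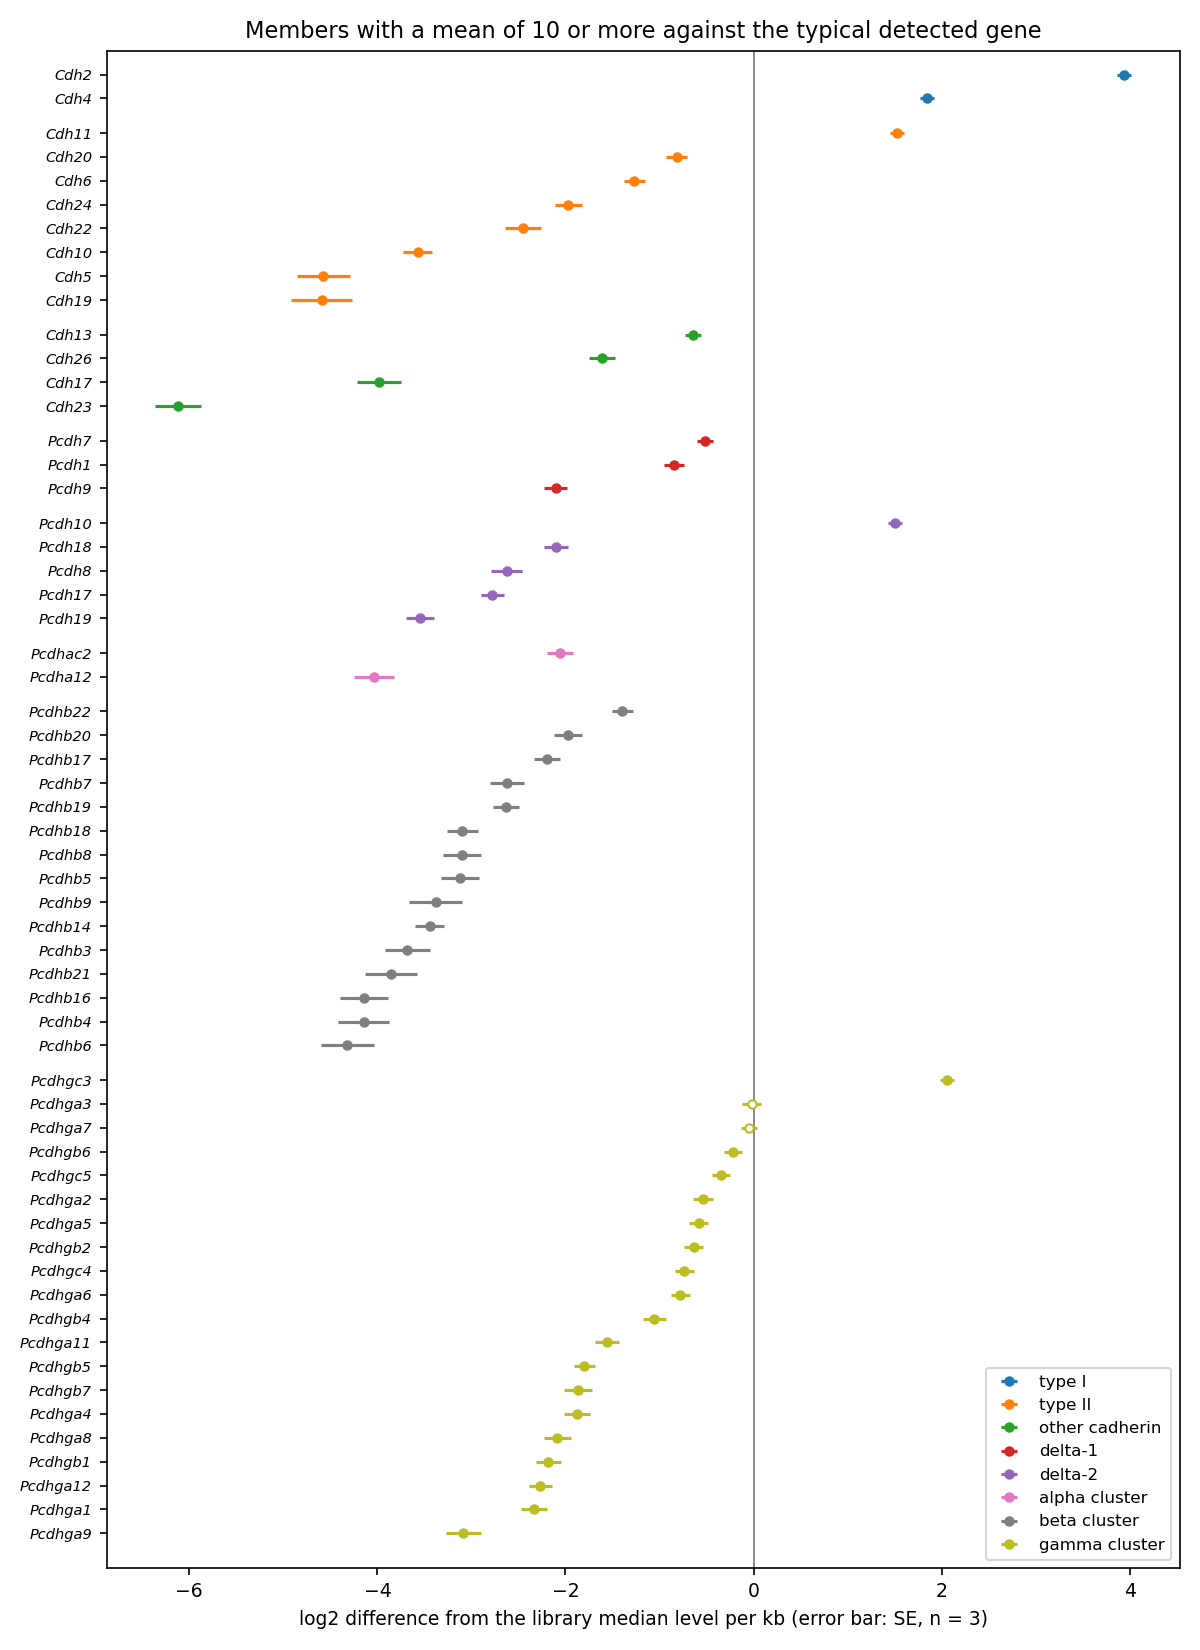
Log2 difference from the library median level per kb for the 59 members with a mean of 10 or more (point: mean of 3 replicates; bar: SE), grouped and coloured by class, with filled points where limma's adjusted p passed 0.05. Of the members, 5 lie above 0 (Cdh2, Cdh4, Cdh11, Pcdh10 and Pcdhgc3), 2 open points (Pcdhga3 and Pcdhga7) lie near 0 and the rest below.

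Among type I cadherins, N-cadherin (Cdh2), the main classical cadherin of neural tissue, was far ahead. Its normalized counts were 7978, 8712 and 9965 in replicates 1, 2 and 3, with a mean of 8885 ± 1004 (SD, n = 3), which ranked 116 among all genes of the table. Replicate 3 was the highest and replicate 1 the lowest, a 1.25-fold range. Per kb it reached 1102 ± 125, which was 3.94 ± 0.08 above the library median on the log2 scale (SE, adjusted p = 2.42e-13, limma), or 15.3-fold. R-cadherin (Cdh4), first described in the retina, followed with 1802, 1965 and 1821 normalized counts, a 1.09-fold range that was the narrowest among the members whose reads differed between libraries. It averaged 1863 ± 89.3, or 257 ± 12.3 per kb, and stood 1.84 ± 0.07 above the library median on the log2 scale (adjusted p = 1.65e-10, limma). The difference in level per kb between Cdh2 and Cdh4 was 2.10 ± 0.18 on the log2 scale (SD, n = 3), which is larger than its spread.

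The remaining type I genes were near the limit of reading. E-cadherin (Cdh1), the classical cadherin of epithelia, gave 3.25, 0.943 and 3.59 normalized counts, which rested on 9 reads in all. Cdh15, the M-cadherin of muscle, averaged 1.37 ± 0.996 on 5 reads, and Cdh3, the P-cadherin of placenta and epithelia, 0.984 ± 0.194 on 4 reads. Neighbours in the order Cdh1, Cdh15, Cdh3 differed by less than their spread between libraries.

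Type II cadherins were led by Cdh11, also known from bone-forming and mesenchymal cells as OB-cadherin. Cdh11 gave 1690, 1863 and 1955 normalized counts, on average 1836 ± 134, and its level of 206 ± 15.1 per kb was 1.52 ± 0.08 above the library median on the log2 scale (SE, adjusted p = 1.26e-09, limma). All the other 7 type II genes tested were below it. Cdh6, first known from kidney as K-cadherin, gave 233, 250 and 326 normalized counts, with replicate 3 apart from the other libraries. It averaged 29.9 ± 5.51 per kb, a log2 difference of −1.27 ± 0.11 from the library median (adjusted p = 2.74e-07, limma). Cdh20 gave 163, 150 and 175 normalized counts. It has less exon sequence than Cdh6 and lay above it per kb, at 40.4 ± 3.12, and in 3 of 3 libraries.

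Cdh24, Cdh10 and Cdh22 averaged 62.8 ± 4.11, 60.1 ± 9.20 and 49.0 ± 14.5 normalized counts. Cdh19 stood at 12.8 ± 5.96 and Cdh5, the VE-cadherin of endothelial junctions, at 11.9 ± 3.16, and these neighbours per kb did not differ beyond their spread. The endothelial markers in the table were Kdr at 690 ± 59.6, Pecam1 at 5.43 ± 1.54 and Tek at 1.68 ± 0.664, and their sum ranged from 650 to 765 normalized counts. Their relation to Cdh5 was not tested. Cdh8, Cdh18 and Cdh7 were below 10, at 9.02 ± 1.72, 3.27 ± 0.722 and 1.21 ± 1.22, and Cdh7 had 0 reads in replicate 2. In the order per kb, 9 of the 10 neighbouring pairs of type II genes had a mean log2 difference larger than its SD. The pairs that hold Cdh8, Cdh18 or Cdh7 are among these 9, although those genes had only 37, 14 and 4 reads in all.

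Taking type I and type II genes as one pool, Cdh2 made up 64.0%, 64.6% and 67.7% of the summed level per kb, a mean of 65.4% ± 2.00 (SD, n = 3). Cdh4 accounted for 15.3% ± 1.37 and Cdh11 for 12.3% ± 0.235. Counted in reads, Cdh2 took 65.9% of all classical cadherin reads in replicate 1, with a 95% Wilson interval of 65.2% to 66.7%. The shares were 66.2% (65.6% to 66.7%) for replicate 2 and 69.1% (68.3% to 69.9%) for replicate 3, whose interval did not overlap those of the other libraries. Such intervals cover counting error only.

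Of the 4 cadherins outside these types, Cdh13 was the most abundant. It encodes T-cadherin, which is held in the membrane by a lipid anchor and has no cytoplasmic tail. Cdh13 gave 543, 508 and 495 normalized counts, on average 515 ± 24.5, and at 45.9 ± 2.18 per kb it was 0.64 below the library median on the log2 scale (difference −0.64 ± 0.09, adjusted p = 1.40e-05, limma). Cdh26 gave 63.4, 68.9 and 77.7 normalized counts. Cdh17, the liver-intestine cadherin, gave 14.6, 25.5 and 19.1. Cdh23, which forms the tip links of inner ear hair cells together with Pcdh15, averaged 16.7 ± 3.24, and Pcdh15 itself was at 2.11 ± 1.05, from 9 reads over the 3 libraries.

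Non-clustered protocadherins of the delta-1 and delta-2 groups differ in their cytoplasmic tails, and most delta-2 members carry a motif there that recruits the WAVE actin regulatory complex. Delta-2 genes are introduced here with the sequence upstream of their start, since they share a class but spanned a wide range of levels. RefSeq (GRCm38.p6) windows of 20 of the 79 members were used, and the 250 bases before the start are shown for Pcdh10, the highest of the group per kb, for Pcdh18, the next, and for Pcdh19, the lowest. Capitals mark ATTGG, the reverse complement of CCAAT, on the strand of the gene.
Pcdh10 (chr3:45378148-45378397, plus strand): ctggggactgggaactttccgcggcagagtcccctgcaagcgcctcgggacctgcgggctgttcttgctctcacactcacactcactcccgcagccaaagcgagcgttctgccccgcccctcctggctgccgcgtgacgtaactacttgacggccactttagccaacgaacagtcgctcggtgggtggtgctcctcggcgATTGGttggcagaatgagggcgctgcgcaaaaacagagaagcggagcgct
Pcdh18 (chr3:49757317-49757566, minus strand): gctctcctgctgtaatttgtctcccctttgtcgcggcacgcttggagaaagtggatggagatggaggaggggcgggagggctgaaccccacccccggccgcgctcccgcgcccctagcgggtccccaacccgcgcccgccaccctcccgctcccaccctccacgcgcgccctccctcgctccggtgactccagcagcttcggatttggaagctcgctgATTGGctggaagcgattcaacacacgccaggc
Pcdh19 (chrX:133688994-133689243, minus strand): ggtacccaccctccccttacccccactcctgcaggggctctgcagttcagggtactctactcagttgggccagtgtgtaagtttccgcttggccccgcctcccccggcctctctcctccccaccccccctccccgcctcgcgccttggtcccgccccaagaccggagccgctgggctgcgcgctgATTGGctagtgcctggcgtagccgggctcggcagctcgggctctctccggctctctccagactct

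In each of the 3 sequences the capitals stand alone, 50, 32 and 65 bases before the start of Pcdh10, Pcdh18 and Pcdh19. Pcdh8 had the same letters 68 bases before its start and Pcdh17 at 101 and 58 bases, so all 5 delta-2 windows held the pattern. The 20 members gave 23 windows, with more than a single one for Cdh7 and for Pcdh9. CCAAT on either strand was present in 60.9% of these windows and in 33.8% of all 32851 windows of the same length. The latter were not limited by chromosome, but member windows left out chromosome 18, so 60.9% does not describe the family. CCAAT was 1 of 5 patterns searched and was picked for display after these counts were seen. The others were GGGCGG (4 of 5 delta-2 windows, 39.1% of member windows and 32.7% of all), CAGGTG (0 of 5, 13.0% and 17.2%), TATAAA (1 of 5, 8.70% and 12.4%), each on both strands, and CG (5 of 5, 95.7% and 92.1%), which is also part of GGGCGG and for which the median number was 21 in delta-2 windows, 11 in member windows and 6 in all windows. The pattern was present upstream of the highest and of the lowest delta-2 gene alike, and it is a description of letters, not of a binding site.

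Pcdh10, a delta-2 protocadherin also called OL-protocadherin, had 3176, 3482 and 3034 normalized counts in replicates 1, 2 and 3. Its mean was 3231 ± 229 and its level 203 ± 14.4 per kb, which was 1.50 ± 0.07 above the library median on the log2 scale (SE, adjusted p = 1.06e-09, limma). The other 4 delta-2 genes were all below that median. Pcdh17 gave 120, 163 and 126 normalized counts, with replicate 2 apart from the rest, and Pcdh18 gave 95.2, 88.2 and 82.5. Pcdh18, at 16.5 ± 1.18 per kb, was 3.61 ± 0.12 below Pcdh10 on the log2 scale (SD, n = 3). Pcdh19, an X-linked gene whose human counterpart is mutated in a form of epilepsy, averaged 63.7 ± 8.72 normalized counts and was the lowest of the group per kb, at 6.09 ± 0.833. Its values were 53.7, 69.3 and 68.2, while Xist, the RNA of the inactive X chromosome, stood at 3000 in replicate 1, 0.472 in replicate 2 and 4.78 in replicate 3. Pcdh19 reads did not pass the test between libraries (adjusted p = 0.308, chi-square), and a link with Xist was not tested. Pcdh8 averaged 52.4 ± 10.5 and did not differ from Pcdh17 per kb beyond the spread.

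Of the delta-1 genes, Pcdh7 gave 487, 586 and 524 normalized counts and Pcdh1 gave 392, 376 and 288. Per kb they stood at 50.2 ± 4.70 and 40.0 ± 6.35, with log2 differences of −0.52 ± 0.09 and −0.85 ± 0.11 from the library median (adjusted p = 0.00013 and 8.71e-06, limma). Pcdh9, with 104, 120 and 112, lay at 16.6 ± 1.19 per kb. Each step in the order Pcdh7, Pcdh1, Pcdh9, Pcdh11x was larger than its spread. Neither of the other 2 non-clustered genes was detected, since Pcdh20 had 8.13, 9.91 and 9.57 normalized counts and Pcdh15 had 3.25, 1.89 and 1.20.

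Within the 11 non-clustered protocadherins, Pcdh10 made up 56.9% ± 0.464 of the summed level per kb, Pcdh7 14.1% ± 0.965 and Pcdh1 11.2% ± 1.37 (SD, n = 3). As a share of reads, Pcdh10 stood at 70.4% (95% Wilson interval, 69.2% to 71.6%), 70.2% (69.3% to 71.0%) and 70.7% (69.2% to 72.1%) over replicates 1, 2 and 3. These intervals overlapped, unlike those of Cdh2.

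Division by length set the side of the median for a few long genes. Without it, 8 members in place of 5 were above the median, the additional ones being Cdh13 at 0.58 (adjusted p = 3.47e-05, limma), Pcdh7 at 0.63 (adjusted p = 2.72e-05) and Pcdhgc5 at 0.32 (adjusted p = 0.00947), and the call of Pcdh1 ended, at 0.02. The exon length used is the union over all annotated transcripts, so a gene read mainly from a short transcript has a level per kb that is too low.

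Clustered protocadherins lie in 3 groups along the plus strand of chromosome 18 (mm10), where the alpha members span 36973802 to 37187657, the beta members 37264938 to 37524479 and the gamma members 37661793 to 37841873 in GENCODE vM21. Gamma genes gave most of their RNA. Per kb, the gamma cluster held 84.4% ± 0.449 of the summed clustered level, the beta cluster 13.6% ± 0.441 and the alpha cluster 1.99% ± 0.181 (SD, n = 3). The gamma share was 85.0%, 84.1% and 84.3% in replicates 1, 2 and 3.

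How reads were divided among genes that share exons bears on those shares. Of the exon length of a gamma gene, 33.2% to 68.5% was not shared with another gene on the strand, and of an alpha gene 40.1% to 51.4%, whereas 51 of the 53 members outside these clusters shared none. Counts differed 34.6-fold between the highest and the lowest gamma gene, so reads from the constant exons were not counted in full for each of them, but the sources used here do not give how they were counted. With the same counts divided by unshared exon length alone, the shares were 89.2% for gamma, 8.38% for beta and 2.42% for alpha. Any reads counted on shared exons stayed in those counts. As reads the shares were 85.5%, 12.3% and 2.17%. The order of the clusters was the same on all 3 scales. Single reads within the clusters are also uncertain where sequence is the same in another gene. This was counted over the 50-base stretches of a gene's annotated transcripts. The median share that also occurred in another gene was 44.3% in gamma genes, 58.6% in alpha genes and 4.46% in beta genes. It was 0 in the delta-1 and delta-2 genes. In alpha and gamma genes such stretches include the constant exons already counted above as shared exon length, so there the shares overlap and are no separate limit.

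**Figure D3:**
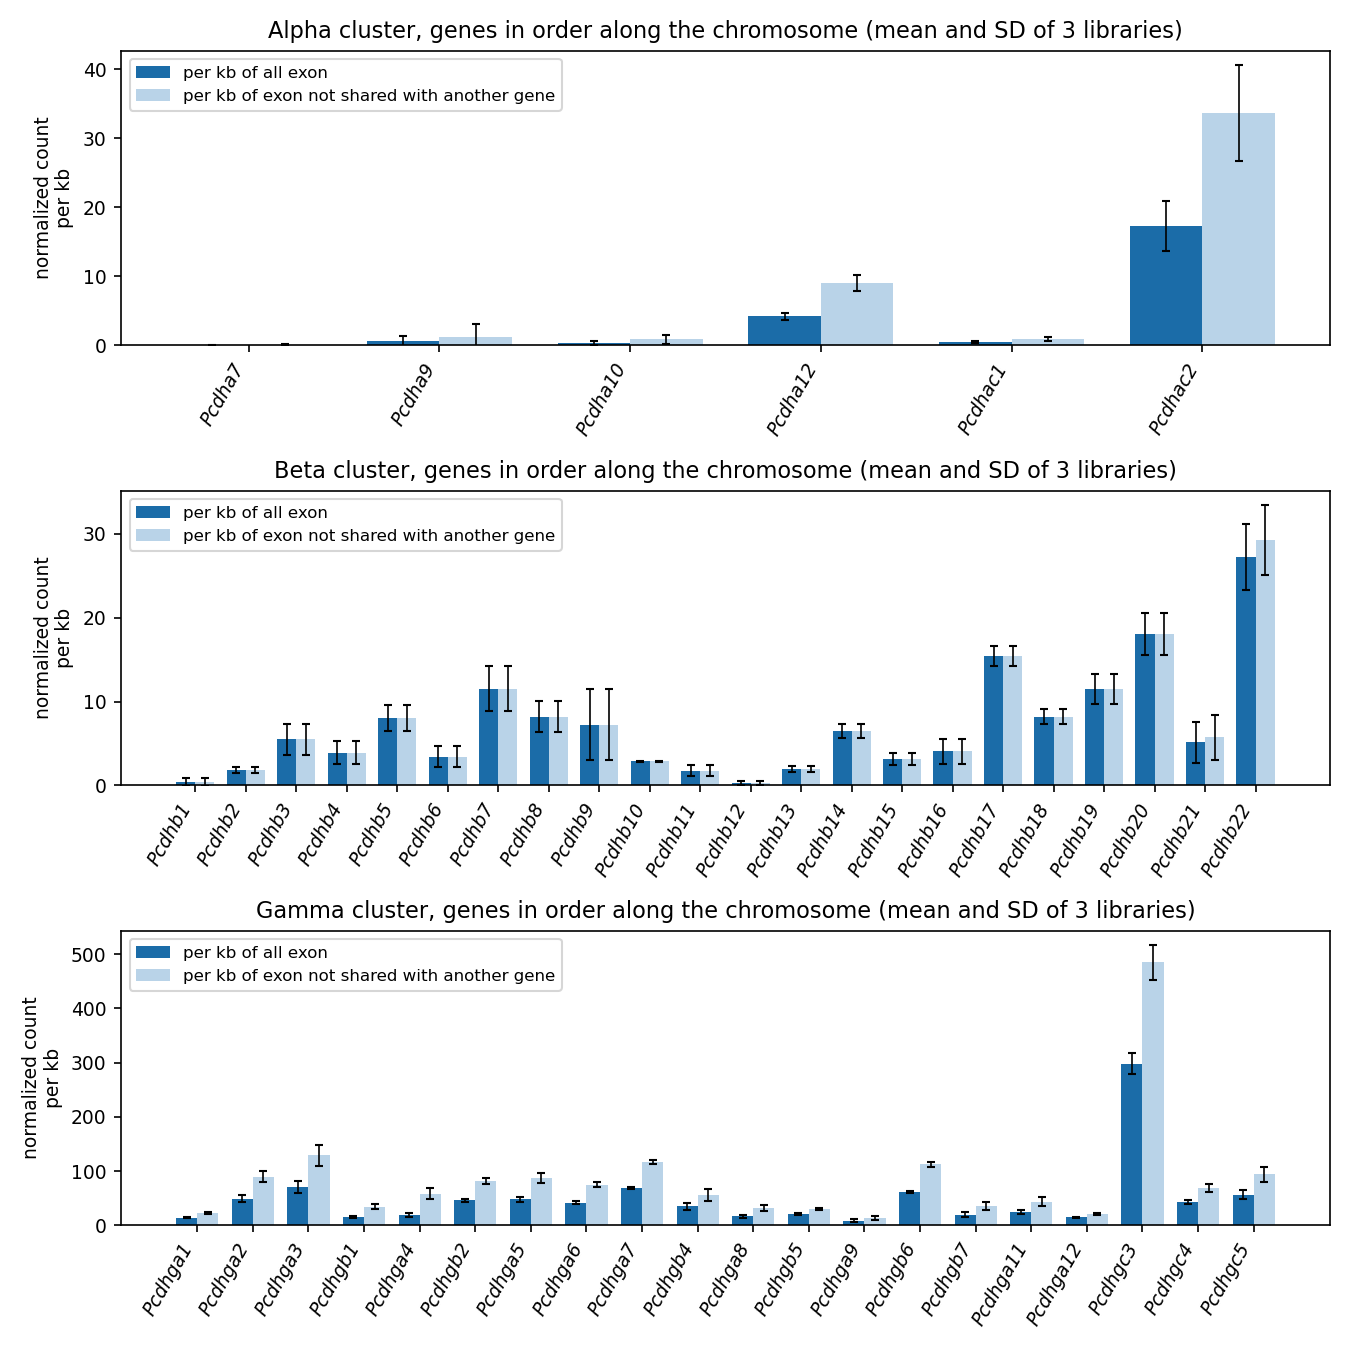
Mean normalized count per kb of each clustered protocadherin over 3 replicates (bar: mean, line: SD), with genes in their order along the chromosome. The same count was divided by all exon length (dark) and by exon length not shared with another gene (light). The panels have separate linear axes from 0. Pcdhgc3 stands apart in the gamma cluster at 298 per kb of all exon and 485 per kb of unshared exon, and Pcdhb22 and Pcdhac2 are the highest of theirs.

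Within the gamma cluster, all 20 genes had a mean of 10 or more, from Pcdhga9 at 47.4 ± 13.9 normalized counts upwards. Pcdhgc3, a C-type gene near the end of the cluster, gave 1713, 1691 and 1515 normalized counts, with replicate 3 the lowest. At 1640 ± 108, or 298 ± 19.7 per kb, it stood 2.06 ± 0.08 above the library median on the log2 scale (SE, adjusted p = 9.16e-11, limma). It made up 30.6% ± 1.73 of the gamma level per kb. Its share of the gamma reads over replicates 1, 2 and 3 was 32.9% (95% Wilson interval, 31.7% to 34.0%), 31.9% (31.1% to 32.8%) and 29.7% (28.3% to 31.1%). The annotated antisense gene BC037039 overlaps Pcdhgc3, and with a mean of 10.3 ± 5.02 normalized counts it was far below it. The kit marks strand, but the strand setting used in counting was not given.

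The other C-type genes were lower. Pcdhgc5 gave 502, 415 and 379 normalized counts and Pcdhgc4 averaged 241 ± 25.7. Among the 11 A-type and 6 B-type genes, levels ran from 8.49 to 71.0 per kb with a median of 24.4. Pcdhga7 was the highest of these by count, with 347, 371 and 364, and one of the steadiest members, with a 1.07-fold range. Pcdhga3, at 71.0 ± 10.8 per kb, and Pcdhga7, at 69.1 ± 2.30 per kb, were the 2 members that differed from the library median in neither direction (adjusted p = 0.859 and 0.604, limma). Of 19 neighbouring pairs in the gamma order, C-type genes included, 14 differed by less than their spread, so most neighbouring ranks cannot be told apart. Genes farther apart in that order were not compared in this way.

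Of the 17 gamma genes below the library median, 7 changed their call when only unshared exon length was used, and the other 10 were below it on that scale too. Pcdhga2, Pcdhga5, Pcdhgb6 and Pcdhgc5 were then above the median, by 0.26 to 0.63 on the log2 scale, and Pcdhga6, Pcdhgb2 and Pcdhgc4 lost their call. Pcdhga3 and Pcdhga7, which had differed in neither direction, were above it by 0.82 and 0.68. That brought the members above the median to 11. Pcdhgb6 was also a narrow case on the original scale, at −0.22 ± 0.09 (adjusted p = 0.0446, limma), and its call ended whichever replicate was left out (adjusted p from 0.0841 to 0.128).

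In the beta cluster, all 15 genes that reached a mean of 10 were below the library median. Pcdhb22 gave 174, 209 and 158 normalized counts, Pcdhb19 gave 68.3, 94.3 and 83.7, and Pcdhb17 gave 65.9, 73.6 and 76.5. Per kb the highest was again Pcdhb22, at 27.3 ± 3.91, whose difference from the library median was −1.40 ± 0.11 on the log2 scale (adjusted p = 1.36e-07, limma), although part of its exon overlaps Pcdhb21. The 7 beta genes under a mean of 10 ranged from 0.743 for Pcdhb12 to 8.82 for Pcdhb15. Along the chromosome, the median level per kb was 3.91 over the first 11 beta genes and 6.51 over the last 11. Spearman's rho of level with order was 0.477 over the 22 genes and 0.520, 0.521 and 0.400 in replicates 1, 2 and 3, which share the same genes. The same levels had a rho of 0.483 with exon length. Over the 17 A-type and B-type gamma genes rho with order was −0.199.

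Of the alpha genes, Pcdhac2, a C-type gene at the end of its cluster, gave 96.8, 125 and 83.7 normalized counts, with replicate 2 the highest. Pcdha12 gave 25.2, 19.3 and 22.7. The other 4 held few reads. Pcdha9 had 0, 0.943 and 8.37 normalized counts, from 9 reads of which most were in replicate 3. The single read of Pcdha7 was in replicate 2. One alpha gene, Pcdha10 in the table, carries the name Pcdha11 in GENCODE vM21, and it averaged 2.23 ± 1.60. A further 8 alpha genes of that release without a row under their symbol, and likewise Pcdhga10, Pcdh12, Cdh9, Cdh12 and Cdh16, were not analysed here.

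Whether members differed between the libraries was tested as well. A chi-square test of the reads against the library totals called 21 of the 59 members (35.6%), against 55.4% of all genes tested. Members held fewer reads than most genes, with a median of 389 over all libraries against 1452 for all genes. At a mean of 1000 or more 5 of 5 members were called, against 84.1% of all genes with such a mean. Of the members with a mean of 100 to 1000 it called 10 of 21, against 56.9% of all such genes, and of those with a mean of 10 to 100 it called 6 of 33, against 27.1%. The ratio of the highest to the lowest library was between 1.09 and 2.92 among the 21 called members, with a median of 1.36. The median SD on the log2 scale was 0.206 over the 59 members, against 0.161 over all genes with a mean of 10 or more. Among members with a mean of 100 or more it was 0.143, against 0.140 for all genes with such a mean.

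The called members did not share 1 direction. Replicate 1 was the highest for 4, replicate 2 for 9 and replicate 3 for 8, and the lowest library was replicate 1 for 9, replicate 2 for 3 and replicate 3 for 9. Cdh2 had the smallest adjusted p (3.44e-45, chi-square) and was called whichever library was left out. Of the 21 called members it was the only one of which that held. Cdh4 was not called without replicate 1 (adjusted p = 0.0510) or without replicate 2 (0.953), Cdh11 without replicate 1 (0.145), Pcdh10 without replicate 2 (0.0794) and Pcdhgc3 without replicate 3 (0.493, chi-square). When replicate 1, 2 or 3 was left out, 15, 12 or 11 members were called. Such a test sets the spread against read sampling alone.

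Among the 21 called members, the beta genes Pcdhb21 and Pcdhb9 had the widest ranges. Pcdhb21 gave 26.0, 34.9 and 11.96 normalized counts, with replicate 3 the lowest, a 2.92-fold range (adjusted p = 0.00797, chi-square). Pcdhb9 gave 14.6, 14.6 and 37.1, with replicate 3 the highest (adjusted p = 0.000474), and without replicate 3 its adjusted p was 0.976. Both were picked for their spread, and 11.3% and 8.75% of their 50-base stretches occur in another gene. Cdh19 had a similar range, 15.5, 17.0 and 5.98, and did not pass the test (adjusted p = 0.118, chi-square).

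**Figure D4:**
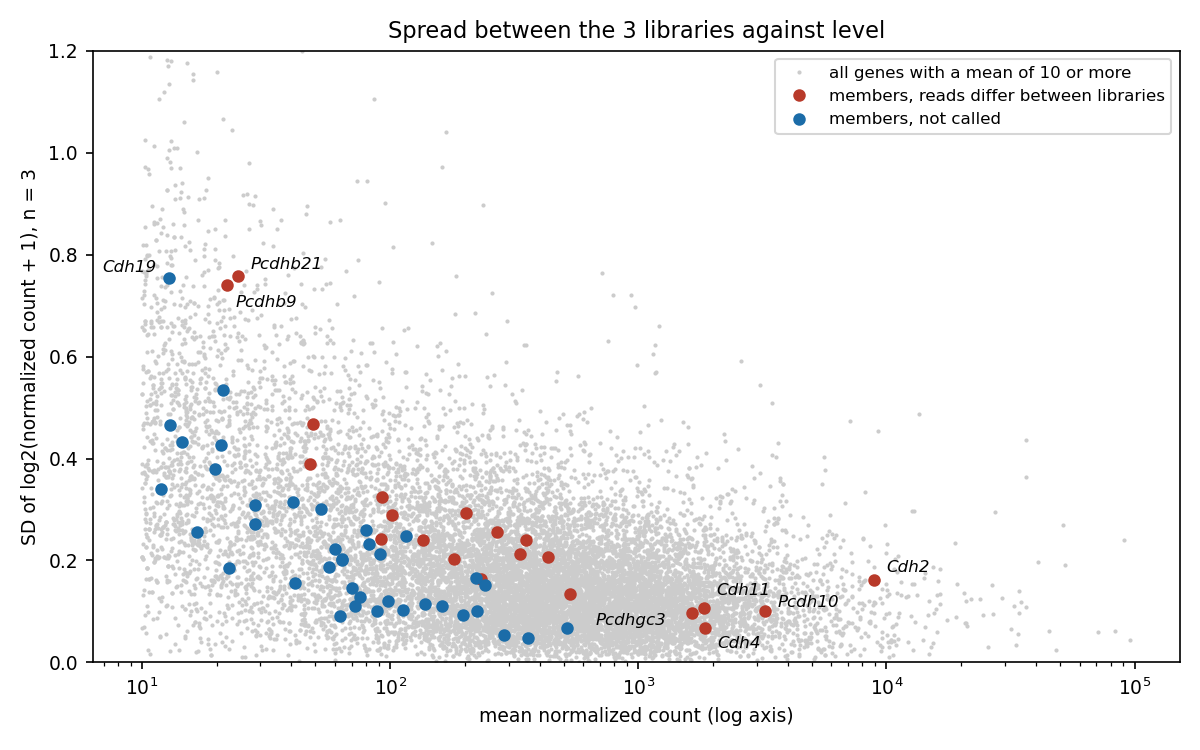
SD over 3 replicates of log2(normalized count + 1) against the mean normalized count (log axis), for all genes with a mean of 10 or more (grey) and for members whose reads differed between libraries by the chi-square test (red) or did not pass it (blue); 34 grey genes lie above the top of the axis at 1.2. The members lie among the other genes at each level, with Cdh2, farthest to the right, at an SD of 0.162.

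Genes that act with the cadherins were counted on the same scale. Of 18 catenins and junction partners, all with a mean of 10 or more, 13 were above the library median and 3 below, with a median log2 difference of 1.37. Beta-catenin (Ctnnb1), which links the cadherin tail to alpha-catenin and also acts in Wnt signalling, was the highest, at 3074 ± 274 normalized counts per kb. Next came alpha-E-catenin (Ctnna1) at 1499 ± 50.1 and the p120 family member Arvcf at 1044 ± 88.9, and the adhesion gene Nectin4 was the lowest at 6.16 ± 1.58. For comparison, Cdh2 was at 1102 ± 125 on that scale.

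Of 28 further cadherin superfamily genes listed, 21 were in the table and 12 had a mean of 10 or more, 5 above the library median and 7 below. Calsyntenin 1 (Clstn1), which binds kinesin in vesicle transport, led at 1193 ± 85.9 per kb, followed by the giant cadherin Fat1 at 847 ± 76.4 and the planar polarity gene Celsr2 at 213 ± 24.2. The desmosomal gene Dsc1 was the lowest, at 0 reads in replicates 1 and 3.

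Regulators of the clustered genes include cohesin, DNA methyltransferases and chromatin repressors. Among 13 listed, 10 were above the median and 2 below, with a median log2 difference of 0.83. The cohesin subunit genes Rad21, Smc1a and Smc3 led at 842 ± 43.4, 363 ± 34.8 and 286 ± 47.5 per kb, and the DNA methyltransferase gene Dnmt3b was the lowest at 4.83 ± 0.285. Ctcf, whose protein works with cohesin at protocadherin promoters and which was picked for that role after its value was seen, stood at 230 ± 27.3.

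Of 13 proteases that process cadherins, 12 had a mean of 10 or more, 9 above the median and 2 below. The gamma-secretase subunit Ncstn stood at 622 ± 27.5 per kb, the sheddase Adam10, which cleaves N-cadherin and gamma protocadherins, at 520 ± 51.8 and the membrane metalloproteinase Mmp14 at 507 ± 15.3, with Mmp3 the lowest at 0.238 ± 0.227. Among 12 transcription factors known to act on cadherin genes, 9 were in the table and 6 had a mean of 10 or more, with 3 above, 2 below and 1 in neither direction. They were led by Tcf3 at 391 ± 39.0, Zeb1 at 143 ± 8.09 and Tcf4 at 125 ± 20.2 per kb, and Snai1, a repressor of E-cadherin, was the lowest at 1.36 ± 0.739. All of these counts stand against 45.7% of all genes above and 45.1% below.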

How the data were processed

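The authors deposited a signal per gene, a normalized count, in 3 libraries. Per the submitters' processing notes, DESeq2 made it and the build was mm10. Per the labels' protocols, RNA was column-purified and libraries came from a stranded poly(A) kit. Aligner, counter, strand setting, annotation and gene filter were not given in the sources used here. Dividing by the value of 1 read gave whole reads for 100% of values (tolerance 0.05 reads).

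GENCODE vM21, on the same build, held 19366 of 19471 identifiers (99.5%) and gave exon lengths. Detected means a mean of 10 or more. An intercept-only limma fit (trended prior) tested log2(value + 1), less log2 of exon kb and the library median, over 13897 genes. A chi-square test compared reads between libraries for 13941 genes with at least 30 reads. Both used Benjamini-Hochberg adjustment and a threshold of 0.05. The limma prior trended on mean level, a choice made after a first fit, when a trend on the difference, tested with other simulated folds, had made more false calls. On simulated data limma then called 3.5% of 200 genes placed at the median and 100% of those 2-fold away from it. Each simulated gene was given the same spread beyond read sampling, 13% of its level. The limma simulation therefore does not give the rate of calls for genes of wider spread or far lower level. The chi-square test called 0.0801% of unchanged genes, 74% of those changed 1.5-fold and 97% of those changed 3-fold. Its simulated reads held read sampling alone, without spread between pups or cultures. They therefore do not give its rate of calls where such spread is present, as in these libraries. Neighbours within a class were compared by their mean log2 difference per kb and its SD over libraries. Cadherins and protocadherins were named freely, with values per library for the 3 highest of each class and those of 1000 or more. Of other lists the 3 highest and the lowest per kb were named. Members, lists and rules were chosen with earlier results of these data known. Alternatives included pseudocount, filters, length, scaling, leaving out a replicate and edgeR's quasi-likelihood test on the reads. Python 3.11.15, SciPy 1.17.1, R 4.3.3, limma 3.58.1 and edgeR 4.0.16 were used.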

Additional observations from a re-analysis of the deposited data

How the results depend on the processing

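No paired analysis was possible because there is a single group. With a minimum mean of 100, 26 of the 79 members counted as detected, against 10571 of all 19471 genes. The count of members whose reads differed between libraries was 11 to 15 when 1 replicate was left out, and 21 with the authors' size factors, of which 20 were shared. Members above the library median numbered 8 without division by length and 11 with unshared exon length, and 5 under each of the other alternatives, edgeR's quasi-likelihood test included. Members below it numbered 48 without division by length and 45 with unshared exon length. With genes of a mean of 1 or more tested there were 68 below, and with no filter on low values 72. Under the other alternatives there were 51 or 52. In edgeR's test the call of Pcdhgb6 below the median ended (adjusted p = 0.05004). With unshared exon length the alpha, beta and gamma shares were 2.42%, 8.38% and 89.2%, and as reads the beta and gamma shares were 12.3% and 85.5%. The length or minimum used makes these changes by construction, and fewer samples those of the left-out replicates. Median-of-ratios size factors of these libraries alone scaled each level 1.29-fold, the same in all libraries. In the shallowest library 1 read is 1.20 normalized counts, so levels of a few reads carry little information.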

Other observations

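A row without a symbol in the table carries the identifier that GENCODE vM21 names Pcdhgb8, a polymorphic pseudogene of the gamma cluster. It gave 8.13, 21.7 and 14.3 normalized counts in replicates 1, 2 and 3, a mean of 14.7 ± 6.79 (SD, n = 3) from 68 reads, with 54.1% of its exon length not shared with another gene. That is below the lowest gamma gene with a symbol, Pcdhga9 at 47.4 ± 13.9.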
